A study of Homo sapiens with 2 samples.

Results

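RNA regions bound by TARBP2 were examined in 10 genes of the machinery that makes microRNAs and silences messages with them. The members were DROSHA, DGCR8, XPO5, DICER1, TARBP2, PRKRA, AGO1, AGO2, TNRC6A and TNRC6B, and they were chosen by name. A region was assigned to a gene when it overlapped the gene's span on hg19 by at least 1 nt and lay on the gene's strand, and coordinates of regions and spans below are on hg19. This gave 30 of the 23412 regions listed for the study, 0.128% (95% exact Clopper-Pearson interval 0.0865 to 0.183%). The regions came from the lung-metastatic human breast cancer line MDA-LM2, transfected with a myc-tagged TARBP2 vector. At 48 hours after transfection the cells were UV cross-linked, and RNA held by the tagged protein was recovered with an anti-myc antibody and sequenced (HITS-CLIP). The 2 replicates formed 1 group, the regions were given as 1 list without a column per replicate, and a control library was not analysed here. TARBP2 was therefore expressed from a vector in every cell population behind these regions, and values have no replicate error. The deposited score was 1 throughout, so no region has a known depth, and intervals below cover counting error only.

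MicroRNAs are cut from hairpins in a primary transcript by the nuclease DROSHA with its RNA-binding partner DGCR8. XPO5 carries the released hairpin to the cytoplasm, where the nuclease DICER1 cuts it again with the help of the double-stranded RNA-binding proteins TARBP2 and PRKRA. The product is loaded into an Argonaute protein such as AGO1 or AGO2, and TNRC6A and TNRC6B, of the GW182 family, link Argonaute to the factors that silence a message. TARBP2 is thus both a member of this machinery and the protein whose bound RNA was measured.

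The regions were spread unequally over the members. On the gene strand AGO2 held 13 regions, TARBP2 6 and XPO5 5, which together made up 24 of the 30 (80%, 61.4 to 92.3%). TNRC6A held 2 regions, while PRKRA, DROSHA, DGCR8 and TNRC6B held 1 each. DICER1 and AGO1 held 0. At least 1 region was thus found in 8 of the 10 members. The spans differ in length, from 5.51 kb for TARBP2 to 291 kb for TNRC6B, so each was set beside windows of its own length tiled over the same chromosome and strand. The share of windows holding at least 1 region was 1.73% at the length of TARBP2, 6.79% for PRKRA, 9.08% for DGCR8, 9.79% for AGO1 and 15.4% for XPO5. It was 19.2% for TNRC6A, 19.3% for DICER1, 23.8% for AGO2, 28.7% for DROSHA and 50% for TNRC6B. These windows also cover stretches without genes and the member's own span. They describe the list as a whole and not other transcribed genes. At the length of TARBP2, 1 of 24188 windows held 6 or more regions, and within 5 Mb of the gene 0 of 1815 did. The windows were not aligned to the gene and can split its regions. The fullest window within 5 Mb, a set that includes TARBP2 itself, held 5. These counts therefore do not show how rare 6 regions are. A count of 0 in DICER1 or AGO1 was the more common outcome for windows of those lengths.

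Per length, TARBP2 stood highest, at 10.9 regions per 10 kb (95% exact Poisson interval 4.00 to 23.7). AGO2 followed with 1.25 per 10 kb (0.663 to 2.13) and XPO5 with 0.930 (0.302 to 2.17). The intervals of AGO2 and XPO5 overlapped, and that of TARBP2 lay above both. This separation depended on counting close regions one by one. With same-strand regions within 1000 nt counted once, TARBP2 held 1 region, or 1.81 per 10 kb (0.0459 to 10.1), AGO2 held 8, or 0.766 (0.331 to 1.51), and XPO5 held 3, or 0.558 (0.115 to 1.63), and all 3 intervals overlapped. PRKRA had 0.505 regions per 10 kb, DGCR8 0.316, TNRC6A 0.207, DROSHA 0.0759 and TNRC6B 0.0344. Each of these 5 values rests on 1 or 2 regions. The count of 0 allows up to 0.418 regions per 10 kb in DICER1 and up to 0.647 in AGO1 (3 counts of the span). On the basis of the Poisson intervals given for the other members, these limits are 0.514 and 0.795. Regions covered 55.9% of the TARBP2 span, 5.83% of AGO2 and 4.13% of XPO5. In the other members that held a region they covered 0.0839% (TNRC6B) to 2.73% (PRKRA).

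**Figure D1:**
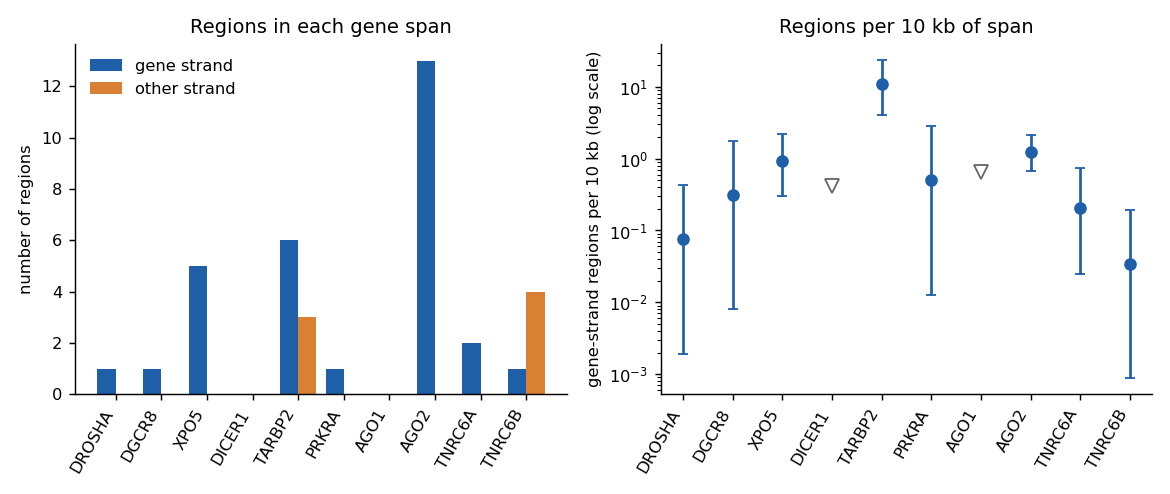
Left, number of listed regions in each gene span on the gene strand and on the other strand. Right, gene-strand regions per 10 kb on a log axis with 95% exact Poisson intervals, where open triangles mark the upper limit that a count of 0 allows. AGO2 had the most regions (13) and TARBP2 the most per 10 kb (10.9, or 1.81 with regions within 1000 nt counted once).

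TARBP2 itself (chr12:53894705-53900215 on hg19, plus strand) was the member whose regions followed its exons. Its span on hg19 was 5511 nt, the same as that of a TARBP2 transcript in GENCODE 29, which is on GRCh38. Regions and exons were therefore both placed by their distance from the 5′ end of the gene, and no coordinate was converted between builds. The principal coding transcript has 9 exons, and its coding sequence with the stop codon is 1101 nt. The 6 plus-strand regions touched all 9 exons and covered 1080 of the 1101 coding bases (98.1%). The coding parts of 5 exons are shown here, from the GENCODE 29 transcript, namely those that hold the first base of a region. They are written 5′ to 3′ with the bases under a plus-strand region in capitals and the others in lower case.
Exon 1 (chr12:53501409-53501461, GRCh38, plus strand): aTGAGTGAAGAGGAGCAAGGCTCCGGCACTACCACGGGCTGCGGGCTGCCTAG
Exon 2 (chr12:53502015-53502184, GRCh38, plus strand): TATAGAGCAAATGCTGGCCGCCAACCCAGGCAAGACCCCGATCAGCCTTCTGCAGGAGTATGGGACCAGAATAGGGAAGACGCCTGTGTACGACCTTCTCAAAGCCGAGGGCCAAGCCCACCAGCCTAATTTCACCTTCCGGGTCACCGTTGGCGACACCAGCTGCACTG
Exon 3 (chr12:53503027-53503129, GRCh38, plus strand): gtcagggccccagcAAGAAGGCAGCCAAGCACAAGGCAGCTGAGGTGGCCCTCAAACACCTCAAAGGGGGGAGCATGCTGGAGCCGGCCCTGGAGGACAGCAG
Exon 4 (chr12:53503713-53503808, GRCh38, plus strand): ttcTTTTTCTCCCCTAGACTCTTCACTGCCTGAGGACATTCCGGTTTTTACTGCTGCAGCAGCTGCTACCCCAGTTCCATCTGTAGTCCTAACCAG
Exon 8 (chr12:53505649-53505850, GRCh38, plus strand): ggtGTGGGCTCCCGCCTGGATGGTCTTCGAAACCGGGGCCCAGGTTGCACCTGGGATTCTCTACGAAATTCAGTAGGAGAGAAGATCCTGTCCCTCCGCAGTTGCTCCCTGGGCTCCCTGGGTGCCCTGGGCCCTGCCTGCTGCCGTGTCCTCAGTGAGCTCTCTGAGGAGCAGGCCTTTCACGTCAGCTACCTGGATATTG
In exon 1 only the opening base of the start codon lay outside the region. In exon 2 all 170 bases lay under a region whose first base was also the first base of the exon. The lower-case bases numbered 14 in exon 3, 3 in exon 4 and 3 in exon 8. The coding parts of exons 5, 6, 7 and 9 lay wholly under regions.

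Both edges of the plus-strand regions kept to the coding exons with little variation. The region at 53895194 to 53895464 (271 nt) began 1 nt after the first coding base and ended 219 nt beyond exon 1. The region at 53895799 to 53896190 (392 nt) began with exon 2 and ended 222 nt beyond it. The region at 53896825 to 53897133 (309 nt) began 14 nt into exon 3 and ended 220 nt beyond it. All these ends lay in introns of the principal transcript, at nearly equal distances past the exon. Those at 53897500 to 53897814 (315 nt) and at 53898180 to 53899258 (1079 nt) ended 222 nt beyond exon 4 and 212 nt beyond exon 7. The second of these was the longest region of the gene and ran from 1 nt before exon 5 across exons 6 and 7. The last region, at 53899436 to 53900148 (713 nt), covered exons 8 and 9 and ended 216 nt beyond the stop codon. The 6 starts thus lay within 14 nt of the start of a coding block, and the 6 ends lay 212 to 222 nt beyond the end of one.

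The untranslated part of the TARBP2 message was covered only after the stop codon. The principal transcript has 483 bases of exon 1 before the start codon, and 0 of them lay under a plus-strand region. Of the 283 bases of the last exon after the stop codon, 216 were covered, which is the same stretch as the overhang of the last region. Overhangs of the other plus-strand regions, 212 to 222 nt long, lay in introns of the principal transcript. The regions of 392, 309 and 315 nt each lay wholly within an exon of another annotated TARBP2 transcript. The coverage after the stop codon was therefore of the same length as the other overhangs, and its source was not tested. RNA from the vector and RNA from the chromosomal gene cannot be told apart in this list, because both would align to the same exons.

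TARBP2 also held 3 regions on the minus strand, opposite to the gene. They lay at 53897297 to 53897563 (267 nt), 53897966 to 53898579 (614 nt) and 53899258 to 53899875 (618 nt). Together they touched 5 of the 9 exons (4, 5, 6, 8 and 9) and covered 541 coding bases (49.1%). Their overhang was on the other side. They reached 200, 215 and 175 nt before the start of exons 4, 5 and 8, and on the right they ended inside the coding parts of exons 4, 6 and 9, 29, 20 and 57 nt before the end of each. On both strands the overhang therefore lay on the side that is 3′ along the region's own strand. Of the 6 plus-strand regions, 3 overlapped a minus-strand region, and 905 nt lay under regions of both strands.

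**Figure D2:**
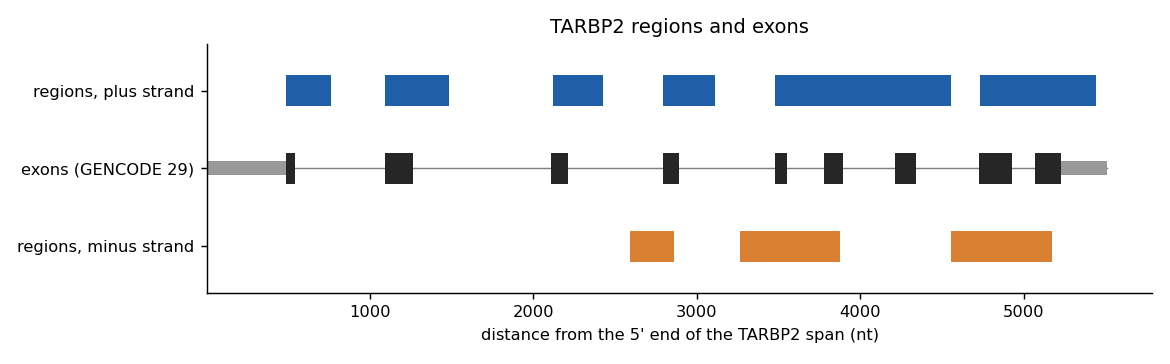
TARBP2 regions on the plus strand (blue, the gene strand) and the minus strand (orange) against the exons of its principal coding transcript, by distance in nt from the 5′ end of the span. Black blocks are coding, grey bars untranslated. The 6 plus-strand regions start within 14 nt of a coding block and end 212 to 222 nt beyond one, and the 483 untranslated bases before the start codon are not covered.

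The other Dicer components gave few regions. DICER1 (chr14:95552565-95624347, minus strand) held 0 regions on either strand over 71.8 kb. The nearest minus-strand regions lay 409 kb upstream and 429 kb downstream of it. PRKRA (chr2:179296141-179315958, minus strand), the paralog of TARBP2, held 1 region of 541 nt at 179310311 to 179310851. Its span equals that of a PRKRA transcript in GENCODE 29 (19818 nt), and by distance from the 5′ end the region lay 5.11 to 5.65 kb into the gene, in intron 3. The nearest exon of that transcript was 1084 nt away. Up to 300 nt of the region lay in an exon of another annotated PRKRA transcript, one with a retained intron. In contrast to TARBP2, the PRKRA region thus did not touch a coding exon of the full-length transcript.

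Outside TARBP2, the gene-strand regions lay in introns. Exons were placed by distance from both ends of the span, using the annotated transcript with the closest span, which differed from the hg19 span by 0 to 257 nt in the members that held regions. A region was called intronic when neither placement met an exon and the nearest exon was farther away than this difference. Of the 24 gene-strand regions outside TARBP2, 23 were intronic by this rule and 1, in AGO2, also lay between exons but too close to one to be called. Introns make up most of the length of these spans. The share of intron in the spans and the intronic share of the whole list were not computed. The count of 23 therefore has no background beside it and is not read as a preference for introns. In the TARBP2 span, 6 of 6 regions on the gene strand and 3 of 3 on the other strand overlapped an exon by at least 1 nt. This looser rule does not make them exonic throughout. Of the 3079 nt under the gene-strand regions of TARBP2, 1080 were coding and 216 lay after the stop codon. The rest lay in introns of the principal transcript.

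AGO2, the Argonaute protein that can itself cleave a message, held the most regions. Its span was chr8:141541264-141645646 on the minus strand (104 kb). Of its 13 regions 12 lay in intron 1, which is 50.2 kb long in the transcript used. They ran from 2.54 kb to 40.2 kb past the 5′ end, and the nearest exon was 2480 nt away from the closest of them. The other region, at 141583159 to 141583407, began 62.2 kb past the 5′ end in the last stretch of intron 2. It was 127 nt from exon 3, within the 257 nt by which the annotated transcript and the hg19 span differ in length. The remaining part of the gene, which holds most exons, had no listed region.

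The AGO2 regions varied in length and in spacing. The longest was 1117 nt, at 141619503 to 141620619, followed by 1074 nt at 141627086 to 141628159. The region nearest the 5′ end was the shortest of the 13, with 217 nt at 141642889 to 141643105. The median of the 13 was 346 nt. Of them, 9 had a neighbour on the same strand within 1000 nt. The smallest gap between neighbours was 132 nt, the median 2516.5 nt and the largest 22.0 kb. Of 1397 windows of the AGO2 length on the minus strand of chromosome 8, 4 (0.286%) held 13 or more regions. Within 5 Mb of the gene 3 of 91 windows did. Both sets of windows include the AGO2 span, so its own 13 regions are among those counted, although a window can split them. AGO1 (chr1:36348810-36395211, plus strand), the other Argonaute, held 0 regions on either strand over 46.4 kb, and the nearest plus-strand regions lay 55.7 kb upstream and 65.5 kb downstream.

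XPO5, the exporter of microRNA hairpins, had its regions in a pair of introns. It spans chr6:43490068-43543812 on the minus strand (53.7 kb) and held 5 regions of 217 to 593 nt. Of these, 4 lay in intron 20, which is 12.6 kb long. They lay at 43505521 to 43506029 (509 nt), 43511199 to 43511791 (593 nt), 43512486 to 43512702 (217 nt) and 43512809 to 43513287 (479 nt). The last 2 were separated by 106 nt, and the nearest exon was 1021 nt or more from each of the 4. The remaining region, of 421 nt at 43527405 to 43527825, lay in intron 11, which is 1.59 kb long, 90 nt from an exon. The annotated transcript and the hg19 span differed in length by 1 nt here. On the minus strand of chromosome 6, 24 of 3171 windows of this length (0.757%) held 5 or more regions, and within 5 Mb of XPO5 7 of 187 did. Here too the windows include the gene's own span and can split it.

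**Figure D3:**
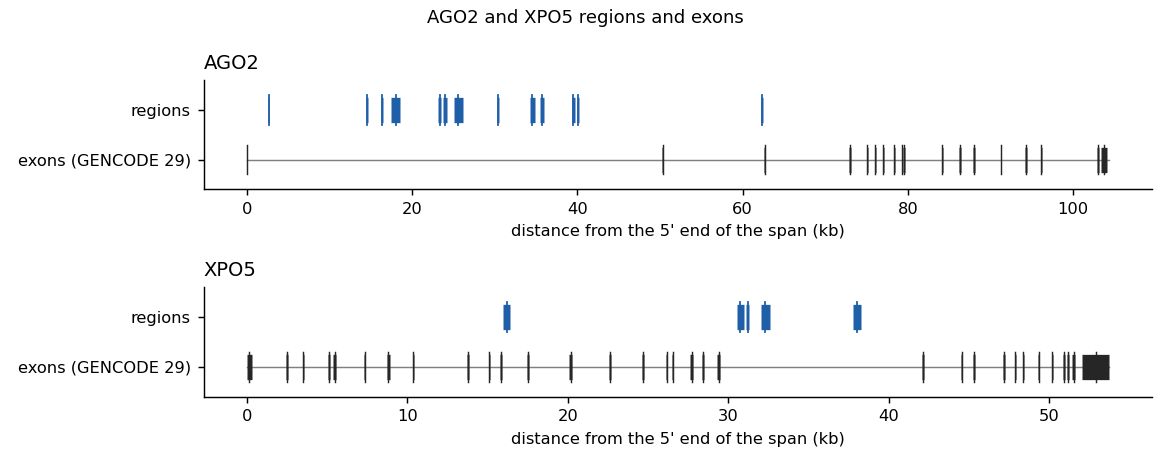
Gene-strand regions of AGO2 and XPO5 (blue) above the exons of the transcript with the closest span (black), by distance in kb from the 5′ end. Of 13 AGO2 regions 12 lie in intron 1, and of 5 XPO5 regions 4 lie in intron 20. Thin lines mark the centre of each item and do not show width.

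The subunits of the nuclear processing complex each held a single short region far from its neighbours. DROSHA (chr5:31400601-31532282, minus strand) had 1 region of 239 nt at 31433552 to 31433790, in intron 24, 98.5 kb past the 5′ end. The next minus-strand region was 355 kb away. DGCR8 (chr22:20067755-20099400, plus strand) had 1 region of 215 nt at 20088980 to 20089194, in intron 8, 21.2 kb past the 5′ end. Its nearest plus-strand neighbour was 77.0 kb away. Windows without a region were the more common outcome at both lengths, with 28.7% holding at least 1 at the length of DROSHA and 9.08% at that of DGCR8.

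The GW182 family members TNRC6A and TNRC6B differed in the strand of their regions. TNRC6A (chr16:24741049-24837547, plus strand) held 2 regions on its own strand, of 294 nt at 24746356 to 24746649 and another at 24761340 to 24761588. Both lay in intron 2, and 0 regions lay opposite to the gene. TNRC6B (chr22:40440821-40731812, plus strand) held 1 region on its own strand, of 244 nt at 40444501 to 40444744, in intron 1. On the minus strand its span held 4 regions, 1 of 244 nt and 3 of the length most common in the whole list. They began 4.60, 5.81, 85.9 and 244 kb past the 5′ end and lay in introns 1, 1, 3 and 13. With 5 regions in all in TNRC6B and 2 in TNRC6A, a difference between the genes was not tested.

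Over the 10 spans, 30 of 37 regions lay on the gene strand (81.1%, 64.8 to 92.0%). The 7 on the other strand fell in TARBP2 (3) and TNRC6B (4), and the other 8 members held 0. Without TARBP2, 24 of 28 lay on the gene strand (85.7%, 67.3 to 96.0%). Regions of 1 gene share their transcript, so these are not independent observations and no p-value is given. The matching share in other genes was not computed, so whether these shares are particular to the members is unknown.

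The lengths and spacing of the member regions were set beside those of the whole list. On the gene strand the median length was 330.5 nt (215 to 1117 nt, n = 30), against 253 nt over the 23412 regions. Without TARBP2 the median was 320.5 nt. The single most common length of the list was that of 2 member regions on the gene strand, 1 each in AGO2 and TNRC6A (6.67%, 0.818 to 22.1%), against 19.7% of the whole list (19.2 to 20.3%). The interval of the members holds the share of the list. Opposite to the genes, 3 of 7 regions in the same spans had this length (42.9%, 9.90 to 81.6%), and their median was shorter than that of the list. Of the 3 member regions over 1000 nt, 2 lay in AGO2 and 1 in TARBP2, a share of 10% (2.11 to 26.5%), against 2.23% of the list, a share that also lies within the interval of the members. Of the 30, 18 had a neighbour on the same strand within 1000 nt (60%, 40.6 to 77.3%), against 19.6% of the list (19.1 to 20.1%). These 18 were 9 of 13 in AGO2, 6 of 6 in TARBP2 and 3 of 5 in XPO5. The regions of DROSHA, DGCR8, PRKRA, TNRC6A and TNRC6B had no close neighbour. DROSHA, DGCR8, PRKRA and TNRC6B held 1 gene-strand region each, so no group could form within them. This contrast between members therefore largely follows from their counts. Since most of these regions come from 3 genes, the shares were not tested against the list.

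Along the genes, 20 of the 30 regions lay nearer the 5′ end than the 3′ end. AGO2 supplied 12 of these 20 from its 13 regions, so the lean to the 5′ end rested on AGO2 and is not a trait of the members. The matching share over all listed regions was not computed. In TARBP2 the regions followed the exons along the whole gene, with midpoints from 11.3% to 92.3% of the span. No other member had a gene-strand region in the last 20% of its span.

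**Figure D4:**
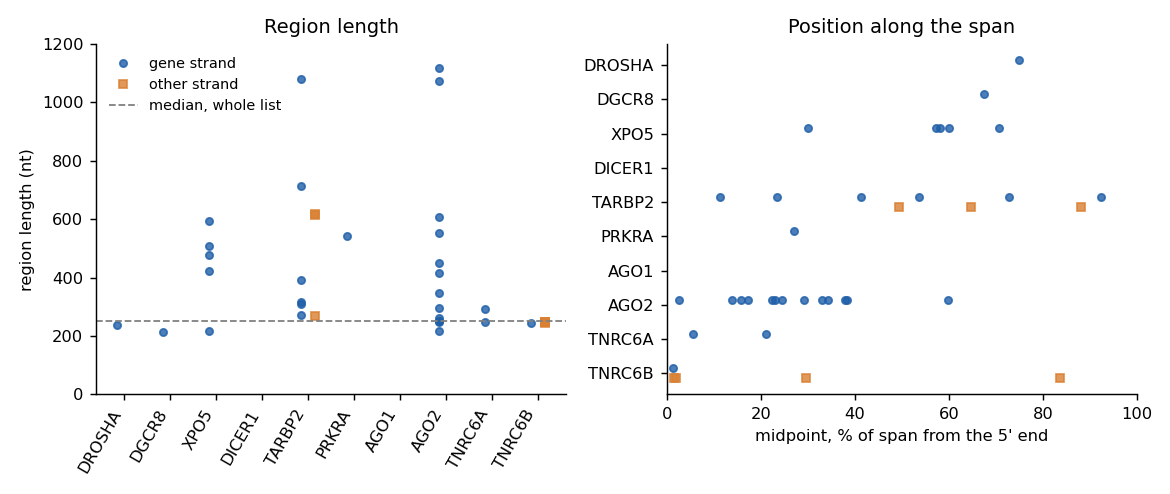
Left, length of each region in nt by gene, with the median of the whole list (253 nt) as a dashed line. Right, midpoint of each region as percent of the gene span from the 5′ end. Blue circles are on the gene strand and orange squares on the other strand. AGO2 regions gather in the 5′ part of its span, and TARBP2 regions run along all of it.

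Region names carry numbers in order of position on a strand, and not each number is among the regions analysed here. In TARBP2 the 6 regions had 6 successive numbers. From the first to the last AGO2 region there were 29 numbers, of which 13 were listed. For XPO5 there were 12 numbers, of which 5 were listed. Around DICER1, 14 unlisted numbers fell between the flanking listed regions, which lay 910 kb apart, and around AGO1 17 fell over 168 kb. Whether any of these numbers belonged to regions inside DICER1 or AGO1 is unknown.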

How the data were processed

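Per the labels' protocols, RNA cross-linked to myc-tagged TARBP2 was recovered from MDA-LM2 cells by HITS-CLIP in 2 replicates, named in the sample titles. Per the submitters' processing notes, Bowtie and hg19 were used. The region caller, its filters, any extension of reads and the handling of multiply aligned reads were not given in the sources used here. These steps set which regions were listed and where they end. The deposited score was 1 for every region and was not used. Starts were deposited 0-based and are printed 1-based. No depth per sample can be given.

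Gene spans were those of the rule, read as 1-based. Other genes of the pathway (AGO3, AGO4, TNRC6C, DDX5, DDX17, RAN, HSP90AA1, CNOT1, PABPC1) were not counted, since their hg19 spans were not used here. Exons came from GENCODE 29 (GRCh38), placed by distance from the gene ends as lengths, which assumes equal internal lengths in both builds. All 10 members are named. Single regions were named where they were the longest, first or last of a gene or overlapped the other strand. The other regions of TARBP2 and XPO5, the AGO2 region near exon 3 and the runner-up in length were named after their values were seen. Members, lists and descriptions were chosen with earlier results of these data known. Shares have 95% exact Clopper-Pearson intervals, counts exact Poisson intervals, and no hypothesis test was run. Windows were tiled end to end from the first to the last region of a strand. The tiling included the member's own span and was not aligned to it, so a window can split the regions of a gene. Counting was tested on simulated data. Alternatives changed the overlap, span, lengths, neighbour distance, windows and transcripts. Python 3.11.15, numpy 2.4.6, scipy 1.17.1 and matplotlib 3.10.9 were used.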

Additional observations from a re-analysis of the deposited data

How the results depend on the processing

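Of 35 alternatives of the main results, 32 stayed within 1.5 times a count or within the interval of a share. Counting only regions wholly inside a span, using midpoints or widening spans by 1000 nt left 30 regions in 8 members. Counting regions within 1000 nt once gave 18 regions, since joining removes neighbours (TARBP2 1, XPO5 3, AGO2 8). With only regions at or above the median length, 5 members held a region, since those of DROSHA, DGCR8 and TNRC6B were shorter. A neighbour within 500 nt was found for 40% in place of 60%. The share of the whole list was computed at 1000 nt only, so the 40% has no background beside it. With exons of any annotated transcript, 23 in place of 24 gene-strand regions lay outside exons. With the TARBP2 transcript of the same span, 98.3% of coding bases in place of 98.1% were covered. The transcript alternatives and those leaving out TARBP2, or AGO2 for the neighbour share, were chosen after seeing the data. No paired analysis was possible because the regions carry no replicate, which also prevented a leave-one-out analysis. Depth is unknown and could not be used to weigh regions.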
